A study of Mus musculus with 18 samples.

Results

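The replication-dependent histone genes supply the histones that package newly made DNA. They were taken as the genes of the mm9 GENCODE annotation whose symbol starts with Hist1h, Hist2h or Hist3h, which gave 69 of 37273 genes, of which 66 were protein-coding and 3 were pseudogenes (Hist2h3c2, Hist3h2bb-ps and Hist1h2aj). H3K27ac and H3K9me3 had been mapped by ChIP-seq in mouse embryonic fibroblasts (MEFs) of C57BL/6 background (C57BL/6J in the methods of the study), either WT with Kap1 loxP/loxP alleles or Kap1 KO, and KAP1 and SETDB1 in Hepa 1.6 cells, a WT hepatoma line derived from the BW7756 tumour of a C57L mouse. The methods of the study describe, for its RNA-seq, Kap1 KO MEFs grown from a selected clone and carried over many passages beside their non-excised counterpart. Each of the 6 peak lists came from 1 library, so that differences between WT and Kap1 KO below are descriptions without a test, and the effects of genotype, clone and passage cannot be told apart.

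Replication-dependent histone genes are expressed in S phase. They are short, lack introns, and their mRNAs end in a conserved stem-loop, bound by the stem-loop binding protein SLBP, in place of a poly(A) tail. Their transcription is coordinated by NPAT in a nuclear structure, the histone locus body, and relies on type-specific promoter elements. H3K27ac marks active promoters and enhancers. KAP1 (encoded by Trim28) is the corepressor that KRAB zinc finger proteins bring to DNA, and SETDB1 is its partner histone methyltransferase, which deposits H3K9me3 at silenced sites.

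The histone genes lay in 4 groups and 1 isolated gene when split at gaps of 250 kb or more between starts. The 10 Hist2 genes occupied 1 group on chromosome 3 and the 3 Hist3 genes 1 group on chromosome 11. Of the 56 Hist1 genes on chromosome 13, 24 formed a first group running from Hist1h2bl to Hist1h2bj and 31 a second group running from Hist1h4h to Hist1h2aa, while Hist1h2al stood alone. With 5 kb added on both sides, the first Hist1 group spanned chr13:21802632-22140545 and the second chr13:23617919-24031720. By type, there were 6 genes for the linker histone H1, 20 for H2A and 19 for H2B, which pair in the nucleosome, and 12 each for H3 and H4, which form its central tetramer. A total of 28 genes stood head to head in 14 pairs, of which 13 joined an H2A and an H2B gene whose starts were 168 to 306 bp apart.

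The stem-loop was looked for first, since it defines the class at the level of the mRNA. A stem of 6 base pairs around a loop of 4 bases with at least 3 T was found within 150 bases of the end of 44 of the 69 genes (63.8%), against 1.92% of all protein-coding genes, and within 300 bases of the end of 50 genes (72.5%, against 3.26%). The most frequent forms among these 50 genes are shown with the stem in capitals. The first form was found in 28 H1, H2A, H2B and H3 genes, the second in 8 genes of the same types, the third in 7 and the fourth in 2 H4 genes. In Hist1h4a and Hist2h2be the match had other letters in the stem and was counted all the same. The search was tied to the annotated gene end, and a stem-loop far from that end would be missed. Some genes without a match had long annotations, such as Hist1h2be (37383 bp), Hist2h2bb (9281 bp) and Hist1h2bc (8290 bp), and others were short, such as Hist1h2an (393 bp). A gene without a match therefore cannot be said to lack the stem-loop.
H1, H2A, H2B and H3 genes, first form: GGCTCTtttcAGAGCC
H1, H2A, H2B and H3 genes, second form: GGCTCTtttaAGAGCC
H4 genes, first form: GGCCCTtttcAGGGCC
H4 genes, second form: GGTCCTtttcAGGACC

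The core promoters were then searched from 250 bases before to 50 after the annotated start, on both strands, for the letters of elements known from histone promoters. CCAAT, the box bound by NF-Y, was present in 59 of 69 histone promoters (85.5%, against 37.9% of all protein-coding promoters) and the TATA letters TATAAA in 38 (55.1%, against 13.4%). Other letters followed the histone type. The octamer ATTTGCAT, the binding site of Pou2f1, was present in 9 of 19 H2B and 7 of 20 H2A promoters and in none of the H1, H3 and H4 promoters, against 1.73% of all promoters. Head-to-head genes share much of the searched sequence, so that a single site can be counted for both. All of these H2A genes but Hist1h2ab stood head to head with an H2B gene that also held the octamer. GGTCCG, part of the H4 element bound by Hinfp, was present in 11 of 12 H4 promoters and in 3 promoters of other types, against 9.78% of all promoters. AAACACA, the H1 box, was present in 5 of 6 H1 promoters, against 6.42% of all promoters. It was also present in 3 of 19 H2B, 1 of 20 H2A and 1 of 12 H3 promoters. The E2F letters TTTCGCGC were present in 5 H2A and 4 H2B promoters, against 0.362% of all promoters. All of these genes but Hist1h2af stood head to head with another of them. These are matches of letters and not measured binding.

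The promoters below are shown from the mm9 genome as examples for the KAP1 and acetylation results, with the letters named above in capitals on either strand. Hist1h4d and Hist1h4k are H4 genes with KAP1 and SETDB1 at their starts, Hist1h4f is the H4 gene without KAP1, Hist1h2bk shares its upstream region with the divergent Hist1h2ah, and Hist3h2ba is the histone gene without H3K27ac. They lie at chr13:23673337-23673496 (plus strand), chr13:21842345-21842504 (minus), chr13:23643488-23643647 (minus), chr13:22127490-22127719 (plus) and chr11:58762283-58762442 (plus), in that order, and end 30 bases into the gene. The Hist1h4f promoter carried GGTCCG as the other H4 promoters shown did, but not TATAAA. Hist2h4, Hist1h4h, Hist1h4c and Hist1h4b also lacked TATAAA in the searched window, and all of them had KAP1.
Hist1h4d: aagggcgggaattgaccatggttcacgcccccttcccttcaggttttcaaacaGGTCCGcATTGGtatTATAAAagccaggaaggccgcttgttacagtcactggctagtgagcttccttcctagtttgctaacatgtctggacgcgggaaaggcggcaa
Hist1h4k: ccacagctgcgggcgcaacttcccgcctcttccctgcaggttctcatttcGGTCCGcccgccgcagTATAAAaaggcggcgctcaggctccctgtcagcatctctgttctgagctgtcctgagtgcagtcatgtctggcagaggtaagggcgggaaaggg
Hist1h4f: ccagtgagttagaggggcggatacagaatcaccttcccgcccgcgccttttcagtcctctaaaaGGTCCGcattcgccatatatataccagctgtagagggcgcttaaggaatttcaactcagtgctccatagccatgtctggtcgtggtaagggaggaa
Hist1h2bk: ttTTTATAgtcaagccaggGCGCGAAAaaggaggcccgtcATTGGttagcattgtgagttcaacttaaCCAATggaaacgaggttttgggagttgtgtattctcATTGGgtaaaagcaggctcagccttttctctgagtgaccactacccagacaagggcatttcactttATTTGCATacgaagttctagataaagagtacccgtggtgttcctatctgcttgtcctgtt
Hist3h2ba: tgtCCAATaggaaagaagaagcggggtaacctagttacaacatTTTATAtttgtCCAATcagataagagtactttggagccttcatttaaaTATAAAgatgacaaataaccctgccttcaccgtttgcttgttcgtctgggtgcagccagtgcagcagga

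Histone genes resemble each other, and how reads that match several copies were placed is not given in the sources used here. For each gene, the stretches of 50 bases within 1 kb of the start were looked up in the rest of the histone groups. The median share found again was 18.7%, and it was above 50% for 10 genes. It was 100% for Hist1h2ao, Hist1h2ap, Hist1h2bq and Hist1h2br, 92.8% for Hist1h4m and 91.9% for Hist1h4n, which lie in 2 near-identical blocks of the first Hist1 group, and between 56.3% and 77.6% for the duplicated Hist2 genes Hist2h3c1, Hist2h3c2, Hist2h2aa1 and Hist2h2aa2. A peak at one of these copies cannot be told apart from signal of its twin, and counts without the 10 genes are given beside the main ones.

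The fibroblast label was checked before use. H3K27ac peaks lay at the starts of 10 of 10 fibroblast marker genes in both genotypes, among them Col1a1, Vim and Twist1, and at 0 of 5 hepatocyte, 0 of 4 ES cell, 0 of 2 blood and 0 of 2 epithelial markers. Of 2 endothelial markers, Cdh5 had none and Pecam1 had weak peaks with scores of 174 in WT and 161 in Kap1 KO. The deletion of Kap1 itself was not checked, since the acetylated start of Trim28 says nothing about it, and lists of KAP1 and SETDB1 peaks cannot show the hepatoma identity of Hepa 1.6. The lists held 36275 H3K27ac peaks in WT and 36436 in Kap1 KO MEFs, 14425 and 4319 H3K9me3 peaks, and 13366 KAP1 peaks. All 2957 SETDB1 entries had the coordinates and the score of a KAP1 entry, so the SETDB1 list gives no SETDB1 score of its own. It was read here as marking the KAP1 peaks that also had SETDB1. How its entries were chosen was not checked, and all SETDB1 counts below rest on that reading.

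H3K27ac covered the starts of nearly all histone genes in both genotypes. A peak was counted at a gene when it shared at least 1 bp with the 1 kb on either side of an annotated transcript start. In WT MEFs, 68 of the 69 genes had one (98.6%, exact 95% interval 92.2 to 99.96%), where 54.6% of all 22367 protein-coding genes did. In Kap1 KO MEFs the count was 66 of 69 (95.7%, 87.8 to 99.1%), with 53.3% over all protein-coding genes. Without the 10 repeated genes the counts were 58 and 56 of 59. The intervals cover counting error only, and genes that share a peak are not independent of each other.

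A total of 2 histone genes had a peak in WT only (2.90%), close to the 2.61% of all protein-coding genes, and 0 had a peak in Kap1 KO only, where the share over all protein-coding genes was 1.36%. Both were the head-to-head genes Hist1h2ba and Hist1h2aa, which encode testis-specific H2B and H2A variants and stand apart at the end of the second Hist1 group. They shared a single WT peak of 629 bp with a score of 58.6, near the lower limit of 50 of that list. At a minimum score of 80, the cutoff stated in the methods, neither gene had a peak and the WT-only count was 0. The gene without a peak in either genotype was Hist3h2ba, with 492 bp of acetylated sequence within 5 kb in WT and 386 bp in Kap1 KO, although its neighbours Hist3h2bb-ps and Hist3h2a shared a peak of 3561 bp in WT and 3633 bp in Kap1 KO.

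Scores did not separate most histone genes, since scores pile up at 3100, called the ceiling here. Some scores in the H3K27ac lists are higher, up to 3233, and all of 3100 or more were counted as at the ceiling. The ceiling was reached at 61 of the 68 genes with a WT peak (89.7%) and at 59 of the 66 with a Kap1 KO peak (89.4%). Of the other protein-coding genes with a peak, 72.0% and 57.6% reached it. Below the ceiling in WT were the divergent pair Hist1h2ah and Hist1h2bk (2805), the pair Hist1h1t and Hist1h4c (1574), the testis pair above and Hist1h2al, the isolated H2A gene (214). In Kap1 KO, Hist1h2ah and Hist1h2bk were at the ceiling, and the lower scores were those of Hist1h4f (2184), Hist1h2be and Hist1h1e (2288), Hist1h4b (1002), Hist1h1t and Hist1h4c (668) and Hist1h2al (337). Hist1h1t encodes a testis-specific H1, and its start was not covered by a peak. It was counted because the peak of the replication-dependent Hist1h4c began 844 bp from it in WT and 970 bp in Kap1 KO.

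The acetylated stretches were wide and shared between genes. The 68 genes were served by 27 WT peaks, of which 22 served more than 1 gene and the most inclusive served 5. The median width of the peak at a histone gene was 5975 bp in WT and 5219 bp in Kap1 KO, compared with 2850 bp and 2751 bp at the other protein-coding genes. A shared peak enters these medians once per gene. With each peak counted once, the medians were 5362 bp over the 27 WT peaks and 4686 bp over the 30 Kap1 KO peaks. Many of these peaks span several histone gene starts, so their width is not the width per gene. All 14 head-to-head pairs shared 1 peak in WT, and 13 did in Kap1 KO, the exception being Hist1h2ba and Hist1h2aa. The starts of a pair lay at most 693 bp apart, so a peak counted at one start was likely to count at the other. The widest WT peak, chr13:23829357-23846497, ran over 17141 bp and held the starts of Hist1h1c, Hist1h3c, Hist1h2bb, Hist1h2ab and Hist1h3b. In Kap1 KO the same stretch held 2 peaks of 4586 and 10962 bp, which together covered 90.7% of it.

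By histone type, the widest WT peaks were that 17141-bp peak for H1, H2A, H2B and H3, and for H4 the peak of 10380 bp next to it, which held the starts of Hist1h4b and Hist1h4a as well as those of Hist1h3a and Hist1h1a. That peak gave the 2 Kap1 KO peaks of 2554 and 4134 bp, which covered 64.4% of its bases. The lowest WT score was that of Hist1h1t among H1 genes, of Hist1h2aa among H2A and Hist1h2ba among H2B genes, and of Hist1h4c among H4 genes, while all 12 H3 genes were at the ceiling in both genotypes.

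**Figure D1:**
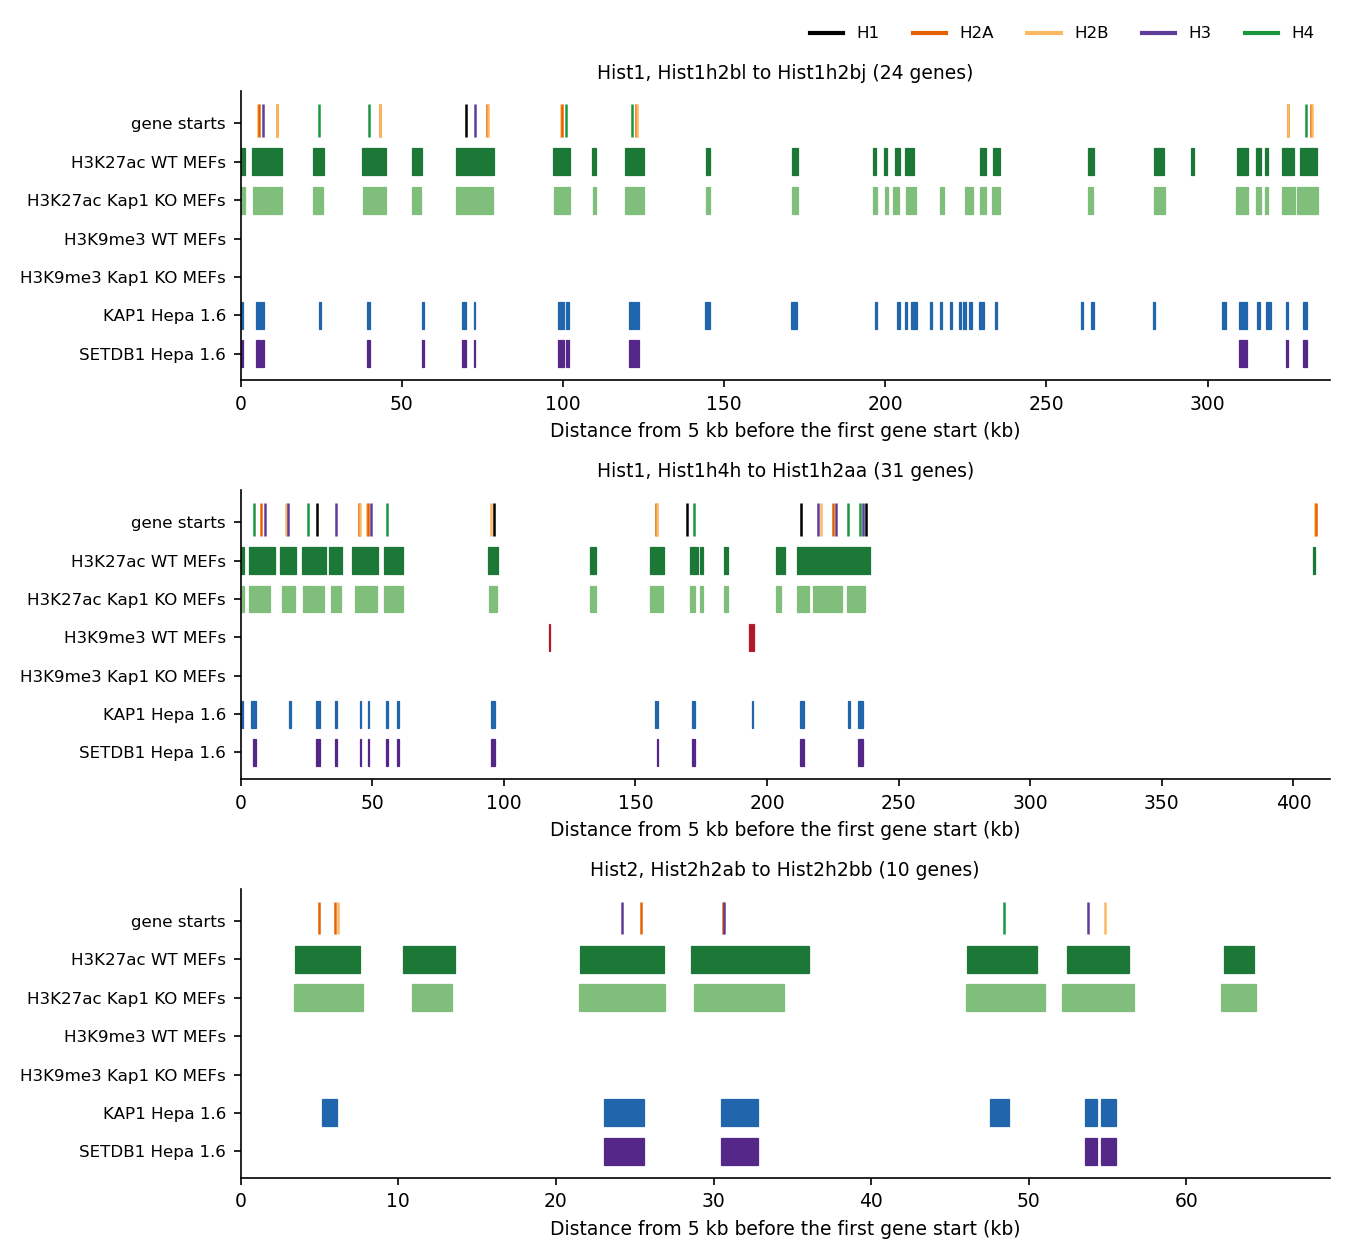
H3K27ac and H3K9me3 peaks in WT and Kap1 KO MEFs and KAP1 and SETDB1 peaks in Hepa 1.6 cells along the first Hist1 group (top), the second Hist1 group (middle) and the Hist2 group (bottom); the x axis is the distance in kb, bars are peaks, drawn with a thin outline that closes the smallest gaps between them, and vertical ticks are gene starts coloured by histone type. H3K27ac peaks follow the gene starts, 4 H3K9me3 peaks lie between genes of the second Hist1 group in WT, and 23 KAP1 peaks, 1 of them in the SETDB1 list, lie in the interval of the first that has no histone genes.

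To compare genotypes away from the score ceiling, the bases under H3K27ac peaks were counted within 5 kb on either side of each gene's 5′ end. The covered share of this window ranged from 4.92 to 100% in WT with a median of 64.4%, and from 0 to 100% in Kap1 KO with a median of 63.5%. The medians of the other protein-coding genes with a WT peak were 29.8% and 28.3%. Histone windows often hold the starts of several histone genes, which adds to their cover. The difference of Kap1 KO minus WT had a median of −426 bp over the 69 histone genes, and of −120 bp over the 13252 protein-coding genes with any covered base in the window. Kap1 KO had at least 1000 bp less than WT at 19 histone genes (27.5%), where 11.3% of those 13252 genes did, and at least 1000 bp more at 7 (10.1%), where 6.87% did. The histone windows had more covered bases in WT, and a window with under 1000 covered bp cannot lose that many. These shares and the median differences are therefore not matched for cover.

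The differences followed the group in which a gene lay. In the second Hist1 group, all 31 genes had fewer covered bases in Kap1 KO than in WT, 16 of them by 1000 bp or more, with a median of −1351 bp and a range from −2192 to −408 bp. In the first Hist1 group, 18 of 24 genes had fewer, none by 1000 bp or more, and 5 had more, all by 1000 bp or more. Over the whole second group, H3K27ac peaks covered 96320 bp in WT and 79698 bp in Kap1 KO, a ratio of 0.827, in 18 and 19 peaks. Over the first group they covered 82127 and 85015 bp, a ratio of 1.04, in 25 and 29 peaks. Whether the groups differ was not tested, since genes of a group share peaks and each genotype had 1 library.

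The largest difference among Hist1 genes was that of Hist1h4a, an H4 gene with KAP1 and SETDB1 at its start, with 8880 covered bp in WT and 6688 bp in Kap1 KO. Its neighbours Hist1h4b, Hist1h3b, Hist1h3a and Hist1h1a, followed with differences of −2059, −2007, −1878 and −1878 bp. Hist1h3e had 5993 bp in WT and 4132 bp in Kap1 KO, and Hist1h3g had 8607 and 6876 bp. The 5 genes of the first group with more covered bases in Kap1 KO lay side by side at its end. Hist1h4i had 6318 bp in WT and 7952 bp in Kap1 KO, Hist1h2ag and Hist1h2bj had 5166 and 6556 bp, Hist1h2ah had 4748 and 5972 bp, and Hist1h2bk had 4926 and 6150 bp. Hist1h3i, in the middle of a peak of 11682 bp, had its whole window of 10001 bp covered in both genotypes.

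The Hist2 genes differed in both directions, with fewer bases at 6 of 10 genes and more at 4. The largest difference was −1229 bp at Hist2h3c1 (8234 bp in WT and 7005 bp in Kap1 KO), an H3 gene, next to −1213 bp at Hist2h2aa1, while Hist2h3b and Hist2h2bb had 1123 bp more in Kap1 KO. Both genes with fewer bases are copies whose surroundings repeat, and their twins Hist2h3c2 and Hist2h2aa2 each differed by −64 bp. Among the 3 Hist3 genes the largest difference was the −106 bp of Hist3h2ba, and the covered bases of the group were 5588 in WT and 5564 in Kap1 KO. Hist1h2al had 1751 and 636 bp.

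Seen by type, the median difference was −1410 bp for the 6 H1 genes, −1065 bp for the 12 H3 genes, −501 bp for the 12 H4 genes, −373 bp for the 20 H2A genes and −356 bp for the 19 H2B genes. Of the H1 genes, 5 of 6 lie in the second Hist1 group, and Hist1h1b, the gene in the first, differed by −31 bp. The order by type and the order by group therefore overlap.

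**Figure D2:**
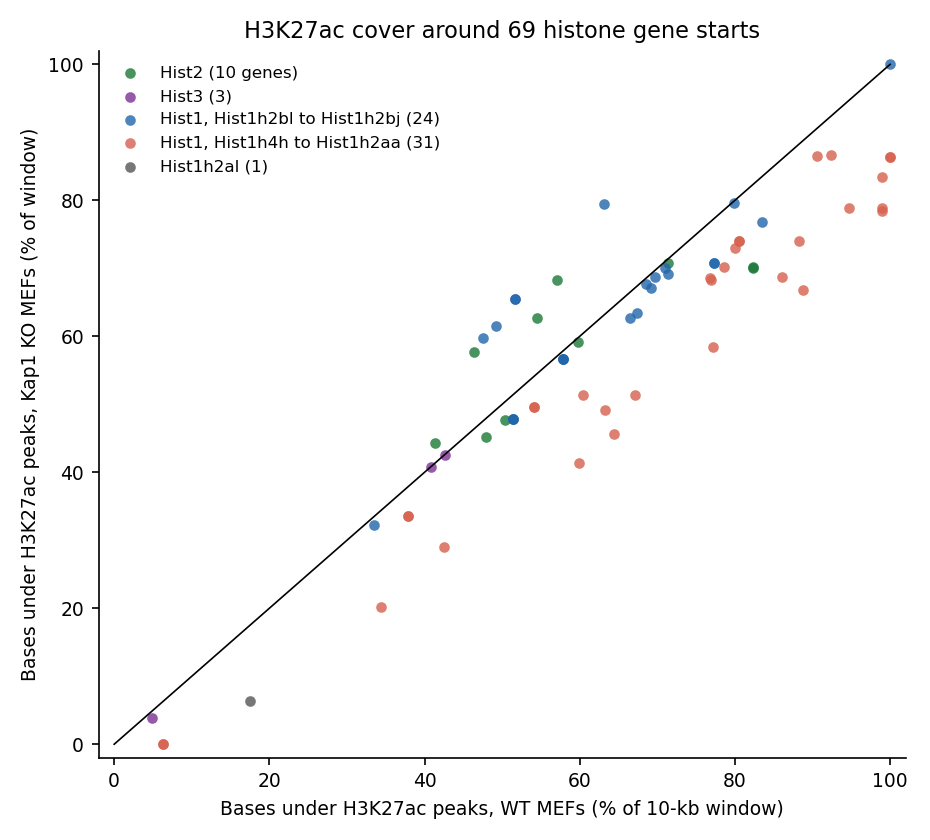
Share of bases under H3K27ac peaks within 5 kb on either side of the 5′ end of each of the 69 histone genes, in WT MEFs (x axis, %) and Kap1 KO MEFs (y axis, %); each point is 1 gene, coloured by group, and the line marks equal cover. All 31 genes of the second Hist1 group lie under the line, and the 5 genes of the first group above it by 1000 bp or more are the neighbours from Hist1h2ah to Hist1h2bj.

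H3K9me3 peaks were few at histone gene starts, as they were over all protein-coding genes. In WT MEFs, 1 of 69 genes had a peak within 1 kb of its start (1.45%, where the share over all protein-coding genes was 2.65%), and in Kap1 KO MEFs 0 of 69 did (upper limit of the exact interval 5.21%, where the share over all protein-coding genes was 0.706%). The gene was Hist3h2ba, the one without H3K27ac, and the peak was 381 bp wide with a score of 55.3, so that at a minimum score of 80 it was not counted. Over the whole groups, WT MEFs had 4 further H3K9me3 peaks, all in the second Hist1 group. A single one had its centre 20.9 kb from the nearest histone gene start with a score of 62.8, and 3 lay side by side 17.8 to 19.3 kb from the nearest start with scores of 83.1, 99.2 and 112. Kap1 KO MEFs had none in any group, from a list with 4319 peaks in place of 14425.

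KAP1 and SETDB1 lay at the majority of histone genes in Hepa 1.6 cells. The KAP1 list had a peak at 45 of 69 genes (65.2%, exact 95% interval 52.8 to 76.3%), where the share over all protein-coding genes was 18.9%. A peak of the SETDB1 list was found at 38 of 69 (55.1%, 42.6 to 67.1%), where the share over all protein-coding genes was 1.81%. Without the 10 repeated genes, all of which had both, the counts were 35 of 59 (59.3%, 45.8 to 71.9%) and 28 of 59 (47.5%, 34.3 to 60.9%). Of the 8742 other protein-coding genes whose start had a WT MEF H3K27ac peak at the score ceiling, 36.9% had KAP1 and 1.77% SETDB1.

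H4 genes carried KAP1 most often. It lay at 11 of 12 H4 genes, 9 of 12 H3 genes, 4 of 6 H1 genes, 11 of 20 H2A genes and 10 of 19 H2B genes, and SETDB1 at 8, 8, 4, 9 and 9 of them. The intervals of these shares overlap, from 61.5 to 99.8% for H4 to 28.9 to 75.6% for H2B. Hist1h4f was the H4 gene without a KAP1 peak, the nearest being 3218 bp from its start, at the H1 gene Hist1h1d. Among H1 genes, KAP1 and SETDB1 lay at Hist1h1b, Hist1h1c, Hist1h1d and Hist1h1e, and neither lay at Hist1h1a or at the testis gene Hist1h1t. At 11 of the 12 H4 genes and 2 of the 19 H2B genes, KAP1 peaks covered at least 50% of the gene, a share that also depends on the length of the gene.

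**Figure D3:**
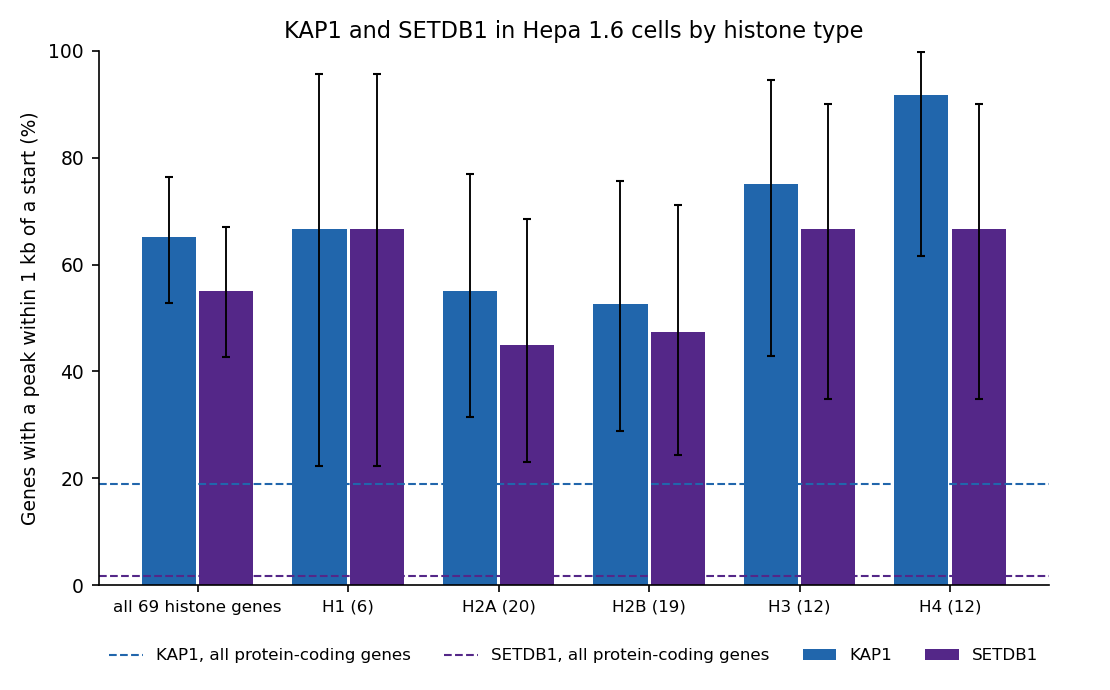
Share of histone genes with a KAP1 (blue) or SETDB1 (violet) peak within 1 kb of a start in Hepa 1.6 cells, over all 69 genes and by type (number of genes in brackets); error bars are exact 95% binomial intervals and dashed lines are the shares over all 22367 protein-coding genes, 18.9 and 1.81%. All bars stand above their dashed line, with H4 highest for KAP1 at 91.7%.

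By cluster, KAP1 lay at 10 of 10 Hist2 genes, 35 of 56 Hist1 genes and 0 of 3 Hist3 genes, and SETDB1 at 6, 32 and 0 of them. Within Hist1, KAP1 lay at 16 of 24 genes of the first group and 19 of 31 of the second. The 7 genes with KAP1 but not SETDB1 were Hist2h2ab, Hist2h2ac, Hist2h2be, Hist2h4, Hist1h4j, Hist1h3f and Hist1h4b, and the KAP1 scores at them ranged from 91 to 173. The 24 genes without KAP1 included 4 of the 5 genes under the widest WT H3K27ac peak (Hist1h3c, Hist1h2bb, Hist1h2ab and Hist1h3b), whereas the fifth, Hist1h1c, had a KAP1 peak with a score of 855 that was in the SETDB1 list. They also included the testis pair Hist1h2ba and Hist1h2aa, the first of which was 171743 bp from the nearest KAP1 peak, and Hist1h2al.

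Of the 14 head-to-head pairs, 8 shared a KAP1 peak, all of them H2A and H2B pairs. As for H3K27ac, the short distance between their starts makes such sharing likely. At Hist1h2bq and Hist1h2ao that peak was 1789 bp wide with a score of 529, and at Hist1h2ah and Hist1h2bk it was 616 bp wide with a score of 93. The centre of the KAP1 peak lay at a median of 248 bp downstream of the start over the 45 genes with KAP1, and the peak covered the start base of 33 of them.

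Most KAP1 peaks at histone genes were also in the SETDB1 list. The 45 genes were served by 34 KAP1 peaks, of which 27 were in the SETDB1 list (79.4%, exact 95% interval 62.1 to 91.3%). Of the 3871 KAP1 peaks at starts of other protein-coding genes, 8.78% were (7.91 to 9.72%), and of all 13366 KAP1 peaks, 22.1%. The median KAP1 score was 213 at histone genes and 153 at other starts. Among peaks above the median score of the list, 20 of 23 at histone genes (87.0%) and 15.5% of 2009 at other starts were in the SETDB1 list. No test was made, since peaks of neighbouring duplicated genes are not independent.

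The strongest peaks at histone genes after the ceiling were at Hist2h3c2 and Hist2h2aa2 (912), Hist1h1c (855), Hist1h4i (764), Hist1h2be and Hist1h1e (754) and Hist2h2aa1 and Hist2h3c1 (731), and all of these were in the SETDB1 list. Hist1h4h had 2 KAP1 peaks. One, of 1088 bp with a score of 335, was in the SETDB1 list, and the other, of 875 bp, was at the ceiling of 3100 and was not.

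Further KAP1 peaks lay away from the histone gene starts. Inside the groups, including the 5 kb added on both sides, there were 28 of them, 25 in the first Hist1 group, and 2 of the 28 lay before the first gene of a Hist1 group. Of all 28, 4 were in the SETDB1 list (14.3%, 4.03 to 32.7%), while their median score was 2181.5 and 10 were at the ceiling, compared with 1 of the 34 at histone genes. In the 197.6 kb between Hist1h2br and Hist1h2ah, where the annotation has no histone gene, there were 23 KAP1 peaks, 8 of them at the ceiling and 1 in the SETDB1 list. The same interval held 15 H3K27ac peaks in WT MEFs, 17 in Kap1 KO MEFs and no H3K9me3 peak in either.

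Many of these peaks held letters found in tRNA genes. GGTTCGA, the core of the B box that recruits TFIIIC and RNA polymerase III to tRNA genes, was present on either strand in 19 of the 28 peaks away from histone gene starts (67.9%), in 1 of the 34 at histone genes (2.94%) and in 3.85% of all 13366 KAP1 peaks. The letters were chosen after these peaks had been seen. Of the 17 of these 28 peaks with a score of at least 1000, 14 held them, and over the whole list 110 of the 211 peaks at the ceiling did. In the genome the letters occur 0.014 times per kb. The order of genes in RefSeq (GRCm38.p6) places 31 of its 430 tRNA genes between Hist1h2br and Hist1h2ah, and none between the first and last genes of the other histone groups. The ceiling peak within 1 kb of the start of Hist1h4h lacked the letters, and in RefSeq order the gene next to Hist1h4h on that side is n-TMcat9, a methionine tRNA gene.

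The sequences around the letters are shown for 4 peaks at the ceiling, read on the strand that carries GGTTCGA, which is in capitals, to let their shared layout be compared. They lie in mm9 at chr13:22010717-22012532, chr13:22028488-22029418, chr13:22031715-22033244 and chr13:23617881-23618820, and none of these peaks is in the SETDB1 list. The ceiling peaks at chr13:21802017-21803376 and chr13:22112500-22114762, not shown, also hold the letters and are in that list. Among all KAP1 peaks with a score of at least 1000, 50 of 458 in the SETDB1 list and 103 of 227 outside it held the letters.
Peak at 22010717: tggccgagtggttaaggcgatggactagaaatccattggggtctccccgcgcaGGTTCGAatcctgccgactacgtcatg
Peak at 22028488: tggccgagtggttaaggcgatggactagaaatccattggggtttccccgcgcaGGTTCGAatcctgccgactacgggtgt
Peak at 22031715: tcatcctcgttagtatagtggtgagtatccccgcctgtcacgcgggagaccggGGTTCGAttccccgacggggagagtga
Peak at 23617881: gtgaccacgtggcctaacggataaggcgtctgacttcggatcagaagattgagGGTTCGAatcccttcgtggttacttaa

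**Figure D4:**
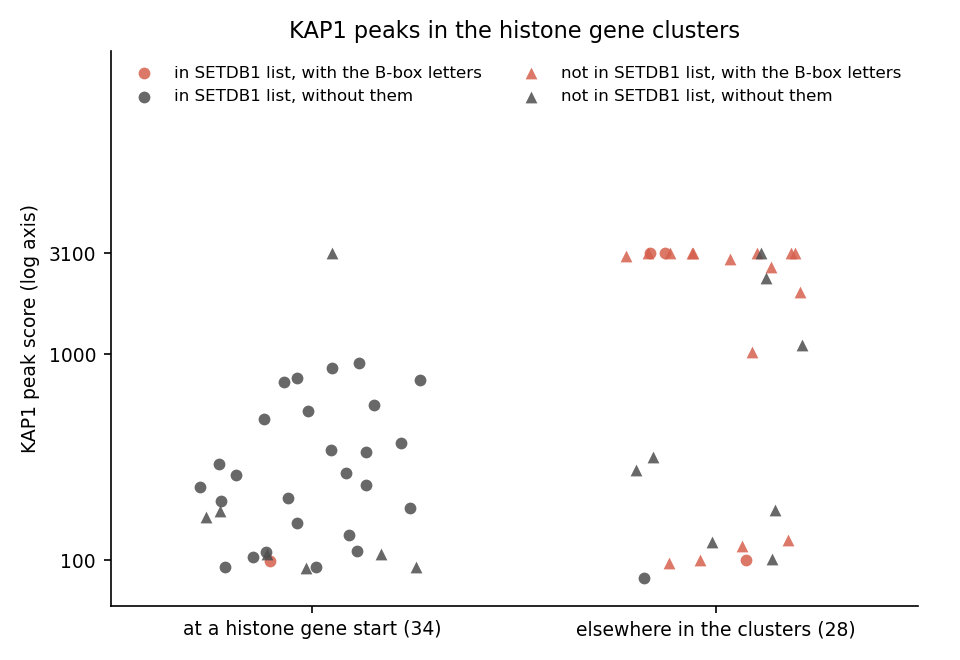
Scores of the 62 KAP1 peaks inside the histone gene groups (y axis, log scale), at a histone gene start (34 peaks) or elsewhere (28 peaks); circles are in the SETDB1 list, triangles are not, and red marks peaks that hold the B-box letters. Peaks at histone genes are mostly grey circles under 1000, and those elsewhere are mostly triangles, with 17 of the 28 at 1000 or above.

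Other genes in and around the pathway were looked at for contrast. The groups hold 12 protein-coding genes that are not histone genes. Of these, 5 had H3K27ac in WT MEFs, 2 had KAP1 and 1 SETDB1, the last being Gm17658, which shares the peak of Hist1h4d. The shares over all protein-coding genes were 54.6% for H3K27ac in WT, 18.9% for KAP1 and 1.81% for SETDB1. Zfp184, a KRAB zinc finger gene, had KAP1 with a score of 123 without SETDB1, and Prss16 had H3K27ac in WT only, with a score of 80.3. The immunoglobulin receptor gene Fcgr1, at the edge of the Hist2 group, had an H3K9me3 peak within 1 kb of a start in WT, and in Kap1 KO a peak inside the gene, 6573 bp from its 5′ end.

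Replication-independent variants and dispersed histone genes all had an H3K27ac peak counted in both genotypes (13 of 13). The shares over all protein-coding genes were 54.6% in WT and 53.3% in Kap1 KO. KAP1 lay at 5 of 13 (H2afz, Hist4h4, H2afy2, H3f3b and H1f0), of which Hist4h4, H2afy2 and H3f3b had SETDB1. Hist4h4, an H4 gene outside the clusters, had an H3K27ac peak of 3664 bp at the ceiling in WT and of 1339 bp with a score of 57.5 in Kap1 KO. The 28 genes of histone transcription, mRNA processing and chaperoning, such as Npat, Slbp, Hinfp, Casp8ap2 and Asf1b, were acetylated in both genotypes without exception. KAP1 lay at 11 of 28, among them Pou2f1 (505), Nfya (340), E2f1 (156) and Npat (93). SETDB1 lay at 0 of 28, which allows a share of up to 12.3%, and H3K9me3 at 0 of 28 in either genotype. The shares over all protein-coding genes were 18.9% for KAP1 and 1.81% for SETDB1. For H3K9me3 they were 2.65% in WT and 0.706% in Kap1 KO, so the counts of 0 are close to them. The KAP1 shares of both gene lists lay near that given above for other genes with H3K27ac at the score ceiling.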

How the data were processed

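Peak lists of 6 ChIP-seq libraries were used, 1 each for H3K27ac and H3K9me3 in WT and Kap1 KO MEFs and for KAP1 and SETDB1 in Hepa 1.6 cells. The authors mapped reads to mm9 with Bowtie 2 (2.2.1 per the processing notes) and called peaks against total input with MACS (1.4), and the deposited score of each peak was used as it stands. The ceiling at 3100, where scores pile up, the cutoff of 80 stated in the methods and the minimum of 50 in the MEF lists limit what scores can show. Read depth is unknown here, so genes without a peak may still carry weaker signal. Genes were those of GENCODE vM1, and sequences came from the mm9 genome. RefSeq GRCm38.p6 served for gene names and order only, and all 69 genes had a name in it. Hist1h2al, protein-coding in GENCODE, was named H2af-ps2 there, with a pseudogene suffix. Hist1h2ap matched 2 records and was given the name H2ac23, as was Hist1h2ao.

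A peak counted at a gene when it shared 1 bp or more with the 1 kb on either side of a transcript start. Counts over all protein-coding genes were checked against bedtools 2.31.1 and on simulated peaks. Shares have exact Clopper-Pearson 95% intervals (scipy 1.17.1). Named genes were those without WT H3K27ac or with it in 1 genotype, those with H3K9me3, KAP1 or SETDB1, those with the widest peak or lowest score per type, those with the largest difference per cluster, and listed genes that deviated. Other genes with large differences, the strongest KAP1 peaks and the letters of tRNA genes were picked after values were seen. The histone genes and gene lists were chosen with earlier results of these data known. Liver, ES cell, input and RNA-seq libraries were not used here.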

Additional observations from a re-analysis of the deposited data

How the results depend on the processing

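Of 88 values recomputed under another setting, 80 stayed within 1.5 times the main count and 8 did not. With the 50% of peaks with the highest scores, SETDB1 lay at 25 histone genes in place of 38, the WT-only H3K27ac count was 0 and the H3K9me3 count in WT was 0. With the peak required to cover the start base, the WT-only count was 1 and the H3K9me3 count 0. At a minimum score of 80 in the MEF lists both were 0, and with equal numbers of peaks taken for WT and Kap1 KO the H3K9me3 count was 0. Each of these settings removes peaks by construction. KAP1 lay at 33 to 60 genes over the settings tried. In the second Hist1 group, 28 to 31 of 31 genes had fewer H3K27ac bases in Kap1 KO under 3 settings of the peak lists, which were added after seeing the data, as was the count without repeated genes. Leaving out replicates could not be done with 1 library per list. No paired analysis was possible because no group used here has more than 1 library.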
